A study of Mus musculus with 4 samples.

Results

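The genes described here are 10 imprinted genes known for a part in growth control: H19, Meg3, Rian, Mirg, Dlk1, Peg3, Plagl1, Grb10, Zim1 and Ndn. They were found by symbol, and each matched 1 of the 54752 gene IDs in the deposited count table. They and the other gene lists below were chosen with earlier results of these data known. Shares of a list set beside those of all genes are therefore descriptions. RNA from mouse aortic graft tissue, depleted of ribosomal RNA, had been sequenced 4 weeks after transplantation. ALLO grafts, which the series title calls abdominal aorta allografts in chronic rejection, were compared with ISO grafts, a name the labels leave unexplained, with 2 libraries in each group (n = 2 per group throughout). The labels give no strain, sex, age or drug for either group, and do not say whether each library is from its own animal. The p-values therefore measure only the spread between these libraries, and for ALLO it is not known whether that is spread between animals. The ALLO libraries differed from each other far beyond sampling noise (chi-square over degrees of freedom 154). In ISO that spread includes a difference in sex, so those libraries are not repeats of the same tissue sample. ISO replicate 1 stood apart in sex: it had 10647 counts of Xist, the RNA that silences an X chromosome, and 0 of Y-linked Ddx3y, while ISO replicate 2 had 8 and 2312. Like ISO replicate 2, both ALLO libraries had few Xist counts (6 and 0) and many from Ddx3y (2287 and 2105). ALLO replicate 2 stood apart in sympathetic neuron transcripts, with 287 counts of Th against at most 4 in any other library.

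An imprinted gene is expressed mainly from 1 parental allele, which is set by methylation laid down in the germ line. Many imprinted genes are active in the fetus, fall silent or low after birth, and set the size of organs or the quiescence of stem and progenitor cells. In mouse Dlk1, Peg3, Plagl1 and Ndn are expressed from the paternal allele, and H19, Meg3, Rian, Mirg, Zim1 and, in most tissues, Grb10 from the maternal allele. H19 has been described in the vessel wall as a fetal transcript that returns after injury. The counts do not separate the alleles, so imprinting itself was not measured.

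H19 was higher in ALLO grafts, 7.03-fold, and Peg3 and Ndn were lower, 4.34-fold and 1.98-fold. The other 7 genes were not called. Meg3 and Grb10 had nearly the same mean level in both groups, while Rian, Mirg and Dlk1 had means in ALLO below those in ISO without passing the test. In edgeR's quasi-likelihood fit over 16498 genes, 33.1% had a Benjamini-Hochberg adjusted p under 0.05, 18.4% as higher and 14.8% as lower in ALLO, and these are the genes said to be called. With 1 of 10 higher and 2 of 10 lower, the share of imprinted growth-control genes called was near that of all genes tested. Their median log2 change was -0.53, beside 0.03 for all genes tested. Of the 4 genes expressed from the paternal allele 2 were lower and 2 not called, and of the 6 expressed from the maternal allele 1 was higher and 5 were not called. All 10 passed the filter on low counts, Dlk1 and Zim1 through both ISO libraries and 1 ALLO library.

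The libraries held 17532344 to 20194854 counts. The cell type markers differed widely between the groups. Of the smooth muscle markers 11 of 12 were lower in ALLO, with summed levels of 1831 and 3208 CPM in ALLO against 33075 and 33699 CPM in ISO, where CPM is the count per 1000000 counts of the library's effective (TMM) size. Of the T cell markers 10 of 10 were higher (537 and 460 CPM in ALLO, 15.9 and 3.68 CPM in ISO), of the macrophage markers 9 of 10 (8526 and 6705 CPM in ALLO, 808 and 238 CPM in ISO) and of the cell division genes 10 of 10 (377 and 280 CPM in ALLO, 28.4 and 14.8 CPM in ISO). Of the fibroblast markers 3 of 12 were lower (Pi16, Clec3b and Gsn). All 12 summed to 21208 and 25488 CPM in ALLO and 12340 and 16087 CPM in ISO. Most of that sum in every library came from the collagen genes Col1a1, Col1a2 and Col3a1, none of them called. The other fibroblast markers changed in both directions, so the sum mainly follows collagen transcripts. Of the endothelial markers 4 of 10 were lower and 1 higher (820 and 968 CPM in ALLO, 1799 and 1763 CPM in ISO). Of the adipocyte markers 1 was lower and 2 higher of 7 tested (1090 and 1351 CPM in ALLO, 986 and 679 CPM in ISO). The lower adipocyte marker, Ucp1, had 8 and 0 counts in ALLO and 247 and 241 in ISO. It passed the filter on low counts through the ISO libraries alone. Skeletal muscle is a tissue in which some of these imprinted transcripts are abundant. Its markers summed to 5.50 and 3.27 CPM in ALLO and 4.62 and 8.63 CPM in ISO. Pax7 and Myod1 were at 0 counts in every library. Of the 4 skeletal muscle markers tested 1 was lower, Ckm, with 0 and 2 counts in ALLO and 10 and 60 in ISO. Ckm also passed the filter on low counts through the ISO libraries alone. In bulk tissue, fewer cells of a type and less RNA per cell cannot be told apart, and the part of cell makeup in the results on single genes was not tested.

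Promoter windows are shown for Peg3 and Ndn because both genes were lower in ALLO. Each runs from 250 bases before to 50 after the RefSeq start (GRCm38.p6), 5′ to 3′ on the gene's own strand, with CG pairs, the site of DNA methylation, in capitals. The Peg3 window is chr7:6730370-6730669 on the minus strand and the Ndn window chr7:62348027-62348326 on the plus strand, inside the table's longer Ndn row.
Peg3 promoter: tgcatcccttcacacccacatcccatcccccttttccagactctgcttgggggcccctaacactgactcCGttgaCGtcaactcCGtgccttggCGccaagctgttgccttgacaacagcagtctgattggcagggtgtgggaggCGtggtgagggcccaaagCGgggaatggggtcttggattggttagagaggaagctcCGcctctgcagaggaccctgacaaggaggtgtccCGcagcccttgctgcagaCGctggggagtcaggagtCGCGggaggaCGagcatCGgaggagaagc
Ndn promoter: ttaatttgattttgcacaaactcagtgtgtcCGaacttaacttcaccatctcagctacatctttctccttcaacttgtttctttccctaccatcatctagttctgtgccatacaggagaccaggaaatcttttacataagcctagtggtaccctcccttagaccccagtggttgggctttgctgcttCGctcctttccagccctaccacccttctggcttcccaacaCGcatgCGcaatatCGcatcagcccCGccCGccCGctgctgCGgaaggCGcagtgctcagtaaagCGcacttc
They held 13 and 11 CG pairs, where the median of 32851 windows of 300 bases was 7 and the quartiles were 3 and 20. The letters GGGGCCCC, a sequence that the zinc finger protein Plagl1 binds, occurred once in the Peg3 window, starting 201 bases before the start, and in none of the other 10 windows of these genes, against 1.08% of all windows. TGCCGC, the core bound by the imprint-protecting factor ZFP57, was found on either strand in 4 of the 11 windows (of Zim1, Plagl1, Grb10 and Meg3) and in 11.6% of all. TGCCGC holds a CG pair, and its 4 windows had 20, 26, 45 and 13 CG pairs, in the order given. The share of all windows was not matched for CG pairs. The matches of both sequences are of letters only, and the windows cover 9 of the 10 genes (not H19). The Mirg window starts at 109734731, inside the table's Mirg row, which starts at 109729764. The windows of Plagl1, Ndn and Grb10 (both), and the Meg3 window that starts at 109545148, also lie inside the rows of their genes. Any of these windows may therefore not be the promoter of the transcript counted.

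4 of the 10 genes are hosts of microRNAs, short RNAs that repress transcripts paired to their seed (bases 2 to 8). RefSeq places 37 mature microRNAs with 36 seeds inside their gene bodies, 2 in H19, 3 in Meg3, 6 in Rian and 26 in Mirg. The products of H19, the host that was higher, are shown first, then 1 from Rian and 4 from Mirg, including the only pair that shares a seed, miR-453 and miR-496a-5p. Seeds are in capitals.
mmu-miR-675-5p (H19): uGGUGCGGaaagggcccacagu
mmu-miR-675-3p (H19): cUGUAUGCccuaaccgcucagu
mmu-miR-370-3p (Rian): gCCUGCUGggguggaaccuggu
mmu-miR-453 (Mirg): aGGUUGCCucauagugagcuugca
mmu-miR-496a-5p (Mirg): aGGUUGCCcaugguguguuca
mmu-miR-134-5p (Mirg): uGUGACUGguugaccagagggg
mmu-miR-410-3p (Mirg): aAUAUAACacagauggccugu
The hairpin rows of the count table gave no measure of them. The single row inside H19 (Mir675) and both rows inside Meg3 were at 0 counts in all 4 libraries, and the 14 rows inside Mirg and 4 inside Rian held 3 and 7 counts in all. These libraries were not made for short RNAs, and the changes below are those of the host transcripts.

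H19, a maternally expressed noncoding RNA that restrains fetal growth (ENSMUSG00000000031.16, chromosome 7, 142575529 to 142578143, mm10), was the member that was higher. It had 174 and 259 counts in ALLO replicates 1 and 2, against 38 and 12 counts in ISO replicates 1 and 2. On the CPM scale these were 8.94 and 11.8 in ALLO and 2.22 and 0.724 in ISO, or 10.3 ± 1.99 and 1.47 ± 1.06 (mean ± SD). Both ALLO libraries lay above both ISO libraries, and the ISO libraries differed from each other 3.07-fold. The log2 change was 2.80 ± 0.60 (SE; 95% interval 1.28 to 4.33; edgeR adjusted p = 0.0233). The change was 3.81 (14.0-fold) when ISO replicate 1 was left out and 2.20 (4.58-fold) when ISO replicate 2 was. Leaving out either ALLO library ended the call (edgeR adjusted p = 0.0543 for replicate 1 and 0.0706 for replicate 2). H19 shares 9.15% of its exonic bases with 3 short RNA genes. Igf2, the fetal growth factor gene that neighbours H19 and is expressed from the other allele, had 2 and 0 counts in ALLO and 16 and 9 in ISO, too few to be tested. The nearest tested gene on one side, Mrpl23 (34.8 kb away), changed by -0.69 ± 0.24 (edgeR adjusted p = 0.0814), and on the other side Tspan32 (427 kb away), a tetraspanin gene of blood cells, was higher by 3.65 ± 0.68 (0.0165).

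Peg3 encodes a large zinc finger protein of the paternal allele that marks adult stem and progenitor cells and acts in p53-mediated cell death (ENSMUSG00000002265.16, chromosome 7, 6703892 to 6730431). It had 376 and 374 counts in ALLO and 1326 and 1324 counts in ISO. The levels were 19.3 and 17.0 CPM in ALLO against 77.5 and 79.9 CPM in ISO. The replicates of each group were close to each other and the groups far apart, with a log2 change of -2.12 ± 0.18 (95% interval -2.58 to -1.66; edgeR adjusted p = 0.00345). With any 1 library left out the change was -2.18 to -2.02 and the edgeR adjusted p 0.00165 to 0.0117. No other gene of the table shares its exonic bases. Usp29, which shares the Peg3 promoter region and is transcribed away from it, was at 0 counts in all 4 libraries. Zfp954, the nearest tested gene on that side (384 kb away), changed by -0.00 ± 0.33 (edgeR adjusted p = 0.995).

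Zim1, a zinc finger gene expressed from the maternal allele 7.44 kb beyond the other end of Peg3 (ENSMUSG00000002266.17, chromosome 7, 6671269 to 6696450), had no shared direction. Its counts were 80 and 9 in ALLO and 11 and 33 in ISO, so that ALLO held both the highest and the lowest value. The log2 change was 0.77 ± 1.17 (95% interval -2.20 to 3.74; edgeR adjusted p = 0.651). It was -1.65 without ALLO replicate 1 and 1.64 without ALLO replicate 2.

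Ndn encodes necdin, a growth suppressor of the Prader-Willi region that binds E2F1 and p53 (ENSMUSG00000033585.5, chromosome 7, 62346569 to 62350262, a gene of 1 exon). It had 245 and 277 counts in ALLO against 435 and 406 counts in ISO. In CPM these were 12.6 and 12.6 in ALLO and 25.4 and 24.5 in ISO, a difference far wider than the gap between replicates. The log2 change was -0.99 ± 0.22 (95% interval -1.55 to -0.43; edgeR adjusted p = 0.0262). The size was steady, -1.04 to -0.96 with 1 library left out, but none of these fits called it (edgeR adjusted p 0.0545 to 0.102), nor did the test against a minimum of 1.5-fold (0.0885). Peg3 stood at 153 and 135 counts per 100 Ndn counts in ALLO and 305 and 326 in ISO, so the fall of Peg3 was the deeper one in both ALLO libraries. Of the neighbours of Ndn in its imprinted domain, Magel2 was at 0 counts throughout and Mkrn3 changed by -0.13 ± 0.82 (edgeR adjusted p = 0.919). Snrpn, a spliceosomal gene of the same domain and the same allele that was picked after its values were seen, had 8 and 45 counts in ALLO and 119 and 147 in ISO (log2 change -2.67 ± 0.76, edgeR adjusted p = 0.0497). Its call was lost without ISO replicate 2 (0.0814) and without ALLO replicate 1 (0.0604, log2 change -1.92), the change was -4.24 without ALLO replicate 2, and 34.1% of its exonic bases are shared with other genes.

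**Figure D1:**
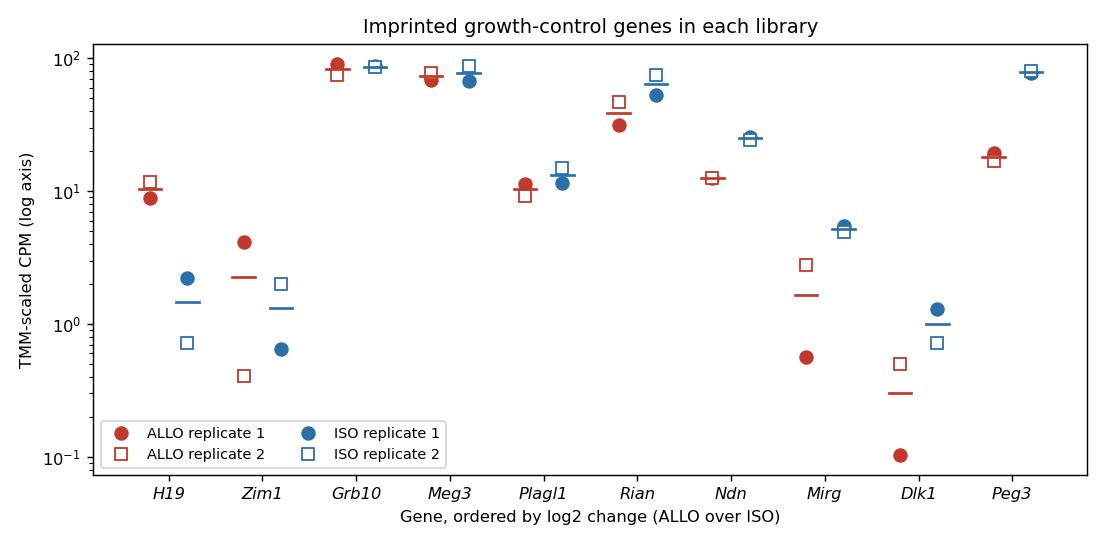
Level of each imprinted growth-control gene in each library, as CPM on a log axis, with ALLO left of ISO, 1 point per library and a bar at the group mean. H19 in ALLO (8.94 and 11.8 CPM) lies above ISO (2.22 and 0.724 CPM), Peg3 and Ndn in ALLO lie below ISO with close replicates, and the Zim1 points are interleaved.

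Meg3, Rian and Mirg lie in this order on the plus strand of chromosome 12 in the Dlk1-Dio3 domain, where they are thought to be parts of long maternal transcripts that carry small nucleolar RNAs and microRNAs. None of the 3 was called. Meg3, which also acts as a tumour suppressor RNA (ENSMUSG00000021268.17, 109541001 to 109571726), had 1339 and 1715 counts in ALLO and 1155 and 1447 counts in ISO. In CPM it had 68.8 and 77.8 in ALLO and 67.5 and 87.3 in ISO, with overlapping groups and a log2 change of -0.08 ± 0.21 (95% interval -0.61 to 0.45; edgeR adjusted p = 0.801). Rian, a host of box C/D small nucleolar RNAs (ENSMUSG00000097451.10, 109603940 to 109661716), had 609 and 1030 counts in ALLO and 905 and 1238 counts in ISO, or 31.3 and 46.8 CPM in ALLO and 52.9 and 74.7 CPM in ISO. These groups did not overlap, but the log2 change of -0.71 ± 0.29 (95% interval -1.44 to 0.02) was not called (edgeR adjusted p = 0.121). Mirg, a microRNA host (ENSMUSG00000097391.8, 109729764 to 109749460), had 11 and 61 counts in ALLO and 93 and 82 counts in ISO. The log2 change of -1.63 ± 0.77 (95% interval -3.59 to 0.34) was not called (edgeR adjusted p = 0.168), although both ALLO libraries lay below both ISO libraries.

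Set against Meg3 in the same library, Rian stood at 45.5 and 60.1 counts per 100 Meg3 counts in ALLO and 78.4 and 85.6 in ISO. Mirg stood at 0.822 and 3.56 counts per 100 Meg3 counts in ALLO and 8.05 and 5.67 in ISO. Neither ratio overlapped between the groups, but 2 libraries against 2 cannot give a two-sided exact permutation p below 0.333, so these ratios are given without a test. The ALLO libraries differed from each other 4.90-fold in Mirg CPM, with replicate 2 the higher. In the same library 3 markers of sympathetic neurons from the nerve list, Th, Dbh and Prph, had 287, 794 and 376 counts, against 4, 20 and 36 in ALLO replicate 1, with Th and Dbh at 0 and Prph at 20 and 9 in the ISO libraries. Uchl1, a neuronal gene of the same list, was also higher in ALLO replicate 2 than in replicate 1 (562 and 74 counts) but lay below both ISO libraries (1084 and 1181), with a log2 change of -2.20 ± 0.83 (edgeR adjusted p = 0.103). Across the 9 nerve and Schwann cell markers the summed level was 122 and 268 CPM in ALLO and 91.7 and 88.8 CPM in ISO, with 3 of 8 tested genes higher. Without ALLO replicate 2 the log2 change of Mirg was -3.18 (9.04-fold) and was called (edgeR adjusted p = 0.0292), and without ALLO replicate 1 it was -0.87. The part of nerve tissue in it was not tested.

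**Figure D2:**
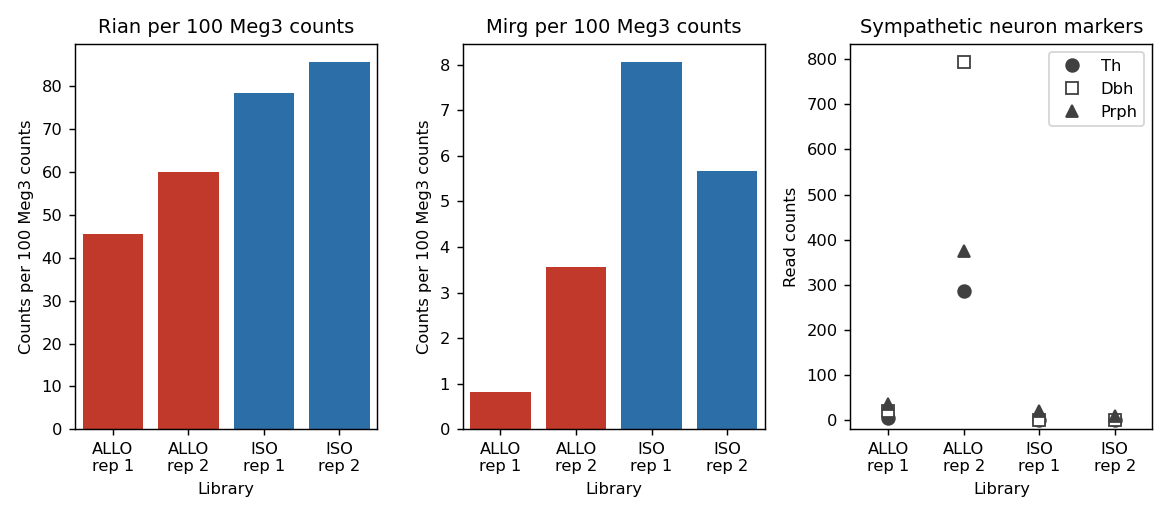
Left and centre, bars give Rian and Mirg counts per 100 Meg3 counts in each library, and right, points give counts of the sympathetic neuron markers Th, Dbh and Prph. Both ratios are lower in the ALLO than in the ISO libraries, and the markers stand out in ALLO replicate 2, the ALLO library with the higher Mirg ratio (3.56 against 0.822).

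Dlk1, a transmembrane protein of fetal tissue related to Notch ligands that holds back adipocyte differentiation (ENSMUSG00000040856.17, chromosome 12, 109452823 to 109463336), was close to the detection limit. It had 2 and 11 counts in ALLO and 22 and 12 counts in ISO, and the log2 change of -1.70 ± 0.92 (95% interval -4.04 to 0.64) was not called (edgeR adjusted p = 0.218). It was -3.20 without ALLO replicate 2, -0.96 without ALLO replicate 1, and with halved counts it failed the filter. Rtl1, the retrotransposon-derived paternal gene of the domain, had 0 and 7 counts in ALLO and 7 and 2 in ISO. At the far end of the domain Dio3, the enzyme that inactivates thyroid hormone, had 16 and 29 counts in ALLO and 2 and 2 counts in ISO. This is a ratio of 9.13 with a 95% counting interval of 2.25 to 80.0 (edgeR adjusted p = 0.0354), and the call was lost with any 1 library left out (edgeR adjusted p 0.109 to 0.254). Dio3 passed the filter on low counts through the ALLO libraries alone, so its difference is given as a description. Of 118 rows from Dlk1 to Dio3, 20 had a count in any library. Of the 118, 67 were microRNA rows, and none of these held more than 4 counts in any library.

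Plagl1 and Grb10 were measured well above the detection limit and neither was called. Plagl1, a zinc finger transcription factor that halts the cell cycle and regulates other imprinted genes (ENSMUSG00000019817.18, chromosome 10, 13060504 to 13131694), had 222 and 204 counts in ALLO and 196 and 249 counts in ISO. Its CPM, 11.4 and 9.26 in ALLO and 11.5 and 15.0 in ISO, barely separated the groups (log2 change -0.36 ± 0.30, 95% interval -1.11 to 0.39, edgeR adjusted p = 0.403). Grb10, an adaptor that binds the insulin and IGF1 receptors and restrains growth (ENSMUSG00000020176.17, chromosome 11, 11930508 to 12038683), had 1780 and 1651 counts in ALLO and 1495 and 1427 counts in ISO. In CPM these were 91.5 and 74.9 in ALLO and 87.4 and 86.1 in ISO, with both ISO values inside the ALLO range. The log2 change was -0.06 ± 0.19, and the 95% interval of -0.54 to 0.42 leaves room for changes of that size in either direction (edgeR adjusted p = 0.833). Its neighbour Cobl (198 kb away), an actin nucleator gene, was lower by -4.49 ± 0.26 on the log2 scale (edgeR adjusted p = 0.00216). Ddc on the other side, the imprinted gene of dopamine synthesis, had 10 and 241 counts in ALLO and 2 and 10 in ISO and was not called (edgeR adjusted p = 0.117).

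**Figure D3:**
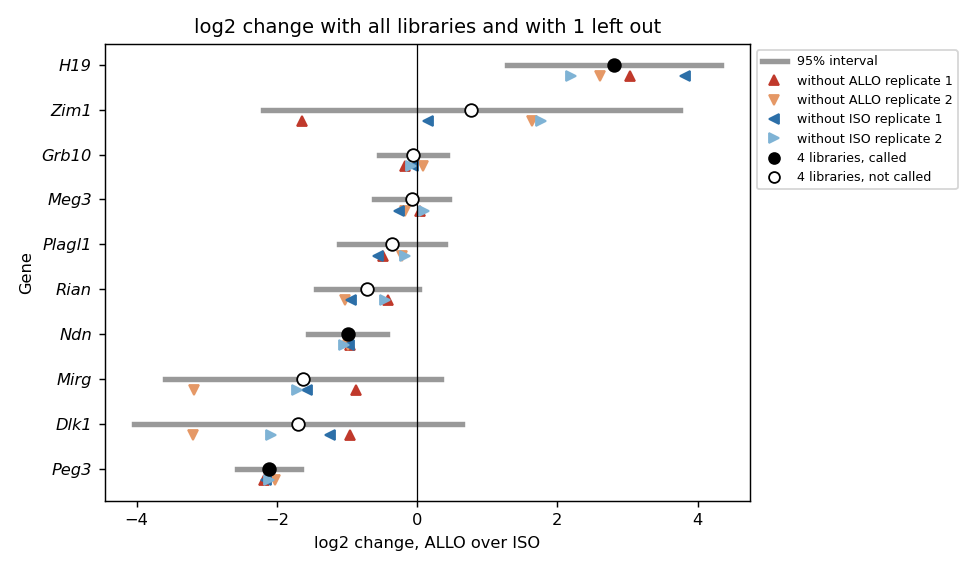
log2 change (ALLO over ISO) of each imprinted growth-control gene, as a circle with its 95% interval for all 4 libraries and as triangles with 1 library left out, filled circles marking genes called. Peg3 stays between -2.18 and -2.02 and Ndn between -1.04 and -0.96, while Zim1 changes sign and Mirg and Dlk1 spread widely.

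Per kilobase of exon, Grb10 had the highest level of the 10 genes in every library, 10.1 and 8.25 CPM per kb in ALLO and 9.62 and 9.48 in ISO. H19 ranked 3 and 2 in the ALLO libraries, at 3.63 and 4.78 CPM per kb, and 7 and 8 in the ISO libraries, at 0.903 and 0.294. Its ALLO values overlapped those of Meg3 (3.80 and 4.30). Peg3 ranked 7 and 6 in ALLO (1.45 and 1.27 CPM per kb), where it overlapped Plagl1 (1.46 and 1.18), and 3 and 3 in ISO (at least 5.82 in both). Ndn ranked 4 and 4 in ALLO (3.41 and 3.40) and 2 and 2 in ISO (6.89 and 6.63). In ISO, Meg3 (3.73 and 4.83) and Rian (2.90 and 4.10) overlapped each other, and Mirg, Dlk1 and Zim1 had at most 0.746 CPM per kb in any of the 4 libraries. The Meg3 and Rian rows cover 18089 and 18234 exonic bases, more than 1 spliced transcript would, which lowers their level per kb.

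By distance between log2 profiles over the 4 libraries, the gene closest to H19 was Fes, a tyrosine kinase gene of myeloid cells, with a root mean square distance of 0.0613 and 1708 and 2848 counts in ALLO and 399 and 141 in ISO. The closest to Peg3 were Ppp1cb, a catalytic subunit of myosin phosphatase, at 0.0460, and the actin-binding gene Anln at 0.0538. The number of genes within 0.1 was 0 for Zim1, 1 for Dlk1, 3 for H19, 5 for Mirg, 16 for Peg3, 27 for Rian, 148 for Meg3, 170 for Ndn, 182 for Plagl1 and 443 for Grb10. It was low also for Zim1, Dlk1 and Mirg, whose replicates spread widely, so a small number does not by itself mark a close likeness.

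Of 46 other imprinted genes, 32 passed the filter, and 2 were higher (H13 and Dio3, given above) and 6 lower in ALLO, a median log2 change of -0.06. In share, 6.25% were higher, against 18.4% of all genes tested, and 18.8% lower, against 14.8%. Dio3, which passed the filter through the ALLO libraries alone, is counted in the 6.25%. Sgce, a sarcoglycan gene expressed from the paternal allele, had 28.7 ± 4.32 CPM in ALLO and 87.0 ± 2.45 CPM in ISO (mean ± SD), 3.03-fold lower with a log2 change of -1.60 ± 0.19 (edgeR adjusted p = 0.00579). Its partner across a shared promoter, Peg10, had a change of nearly the same size that was not called (-1.56 ± 0.50, edgeR adjusted p = 0.0666). Peg13, a noncoding RNA of the paternal allele, was 2.88-fold lower (edgeR adjusted p = 0.00637). The calls for Sgce and Peg13 held with any 1 library left out. Ppp1r9a, a neurabin gene near Sgce, was 2.80-fold lower (edgeR adjusted p = 0.0234) and the splicing factor gene Zrsr1 1.75-fold lower (0.0414), with their calls lost in 3 and 4 of 4 fits that left out a library. The other 2 lower genes were Snrpn, given above, and Gnas, which encodes a G protein subunit (2.19-fold, edgeR adjusted p = 0.0437, call lost in 2 of those 4). H13, a signal peptide peptidase gene, was 1.68-fold higher (edgeR adjusted p = 0.0420), a call lost in 3 of those 4. Cdkn1c, the imprinted inhibitor of cyclin-dependent kinases, and Igf2r, the receptor that clears IGF2, were not called (-0.43 ± 0.38 and 0.46 ± 0.20). Other genes share 22.0% of the exonic bases of Gnas and 30.7% of those of Cdkn1c.

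**Figure D4:**
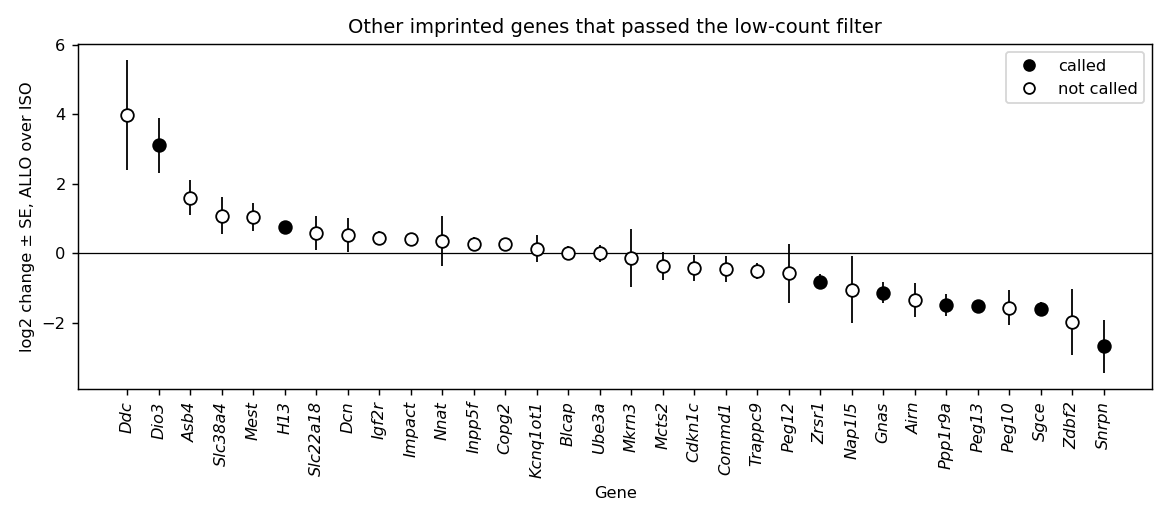
log2 change with its SE (ALLO over ISO) of the 32 other imprinted genes that passed the filter on low counts, ordered by change, filled circles marking genes called. The 6 lower genes run from Snrpn at -2.67 to Zrsr1 at -0.81, and 24 of the 32 genes were not called.

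In the insulin and IGF pathway on which Grb10 acts, 4 of 23 genes were higher and 4 lower, with a median log2 change of -0.44. These shares, 17.4% in each direction, were near the 18.4% higher and 14.8% lower of all genes tested. Grb14, the relative of Grb10 that also inhibits the insulin receptor, was 7.98-fold lower (edgeR adjusted p = 0.00313), and held with any 1 library left out. Grb7, the third member of the family, had 27 and 26 counts in ALLO and 0 in either ISO library. Against a floor of 6 counts per library it was at least 3.60-fold higher, a call lost with any 1 library left out (edgeR adjusted p 0.0564 to 0.0991). Grb7 passed the filter on low counts through the ALLO libraries alone, so its difference is given as a description. It is counted in the 17.4% that were higher. The IGF binding protein genes Igfbp3 and Igfbp2 were 10.2-fold and 10.7-fold higher (edgeR adjusted p = 0.00584 and 0.0154). Igfbp3 was 15.9-fold higher without ISO replicate 1, and Igfbp2 17.0-fold higher with ALLO replicate 1 left out and 4.83-fold with ALLO replicate 2 left out. Igfbp5, another binding protein gene, was lower by -2.46 ± 0.45 (edgeR adjusted p = 0.0157). The IGF1 receptor gene Igf1r was 1.74-fold lower (edgeR adjusted p = 0.0310), a call lost in 3 of 4 fits that left out a library, as were those of Foxo1 (lower, -0.90 ± 0.20) and Irs2 (higher, 0.72 ± 0.20).

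Among 18 tested factors that act on DNA methylation or other marks of imprints, 8 were higher and 1 lower, a median log2 change of 0.64. These were 44.4% and 5.56% of the list, beside 18.4% and 14.8% of all genes tested. The higher genes included Dnmt1, the maintenance DNA methyltransferase (2.46-fold, edgeR adjusted p = 0.00785), Uhrf1, which recruits it to replicated DNA (10.3-fold, 0.0111, and 19.5-fold without ISO replicate 1), and Ezh2, the histone methyltransferase of Polycomb (4.98-fold, 0.00504). The 10 of 10 cell division genes that were higher in the same comparison are given above, and the part of cell division in these values was not tested. The list also holds 3 methylcytosine dioxygenase genes, whose enzymes act to remove DNA methylation: Tet2 and Tet3 are 2 of the 8 higher genes and Tet1 is the lower one. Tet2 was higher by 1.11 ± 0.20 and Tet1 lower by -1.65 ± 0.41 (edgeR adjusted p = 0.0146 and 0.0350), with calls lost in 2 and 3 of 4 fits that left out a library. Zfp57, whose protein binds methylated imprints and was picked after its values were seen, was 2.49-fold higher (edgeR adjusted p = 0.0449), a call lost with any 1 library left out (0.0657 to 0.175).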

How the data were processed

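Raw read counts per gene were deposited by the authors in 1 table, 1 column per library, for 2 ALLO and 2 ISO libraries. The submitters' processing notes name mm10, featureCounts, Subread 1.6.4, R 4.0.3 and DESeq2 1.30.0. Sources used here do not give the aligner, annotation release or strand setting. Of genes with 1 to 20 counts 68.0% to 74.6% had an even count, the pattern of pairs counted as 2 reads. Names came from GENCODE M21 (54723 of 54752 IDs matched), coordinates from the table, sequences from RefSeq (GRCm38.p6).

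Groups came from sample titles. Genes were filtered with filterByExpr (minimum count 10), scaled by TMM and tested with edgeR 4.0.16 (glmQLFTest after glmQLFit, with no covariate) and Benjamini-Hochberg adjustment over 16498 genes. The SE is the log2 change divided by the square root of F, and 95% intervals use the test's degrees of freedom. Counting intervals (Clopper-Pearson on counts divided by 2) and the floor of 6 counts, or 3 pairs, cover counting error only. Replicates differed far beyond sampling noise (chi-square over degrees of freedom 154 in ALLO and 45.7 in ISO).

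The 10 genes and all gene lists were chosen with earlier results of these data known. Beyond the 10, up to 4 genes with the smallest adjusted p in each direction were named per list, with the nearest tested neighbours and the closest profiles, and other genes were named for their role or position after their values were seen. Alternatives were other scalings and filters, DESeq2 1.42.0, limma-voom (limma 3.58.1), glmTreat, a replicate block, each library left out, halved counts, and leaving out abundant classes (mitochondrial, rRNA and antigen receptor genes). The procedure was tested on simulated data with the same dispersion for every gene and few genes changed. Its error rate in data like these was therefore not measured. Software was matplotlib 3.10.9, scipy 1.17.1, pandas 2.3.3, Python 3.11.15 and R 4.3.3.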

Additional observations from a re-analysis of the deposited data

How the results depend on the processing

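Peg3 was called as lower under every alternative run, with a log2 change of -2.18 to -1.93. H19 kept its call in all but the fits without an ALLO library, and Ndn in all but glmTreat and the fits with a library left out. The number of these 10 genes lower was 1 (Peg3) with glmTreat against 1.5-fold. With 1 library left out it was 1 to 2, and the number higher 0 to 1, where edgeR gave 1 at an unadjusted p under 0.05 whenever none was called. Library size as the only scaling moved the median of all genes by 0.19, and Meg3 and Grb10 then changed by 0.11 and 0.13, so that neither has a direction. With 1 library left out Meg3 ranged from -0.27 to 0.10, Grb10 from -0.18 to 0.082 and Zim1 from -1.65 to 1.77. Of the other imprinted genes 3 were lower with library size only and 3 with glmTreat. Of them 1 was higher with no filter, with a mean count of 10 or more, with limma-voom, with the replicate block and with halved counts, 4 with DESeq2, and 0 with glmTreat (2 at an unadjusted p under 0.05). With 1 library left out 0 to 1 were higher and 2 to 5 lower. Of all genes, 1565 were lower with glmTreat and 1512 to 2245 with 1 library left out. Replicate numbers are not said to pair the libraries, and their deviations correlated at 0.097. With the replicate block 4873 genes were called against 5469, and H19, Peg3 and Ndn remained called. A library left alone in its group is assumed to vary like the other group. Depth limits Dlk1, Zim1, Mirg, Igf2 and Dio3, which had fewer than 100 counts in each library.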
